A study of Mus musculus with 96 samples.

Results

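Uninjured cardiomyocytes (CMs) were represented by 4 small RNA libraries from D0, the time point of the control mice that had no operation, out of 96 libraries in the whole series. They were compared with 3 other cell types from control hearts, namely hematopoietic cells (HCs), fibroblasts (FBs) and endothelial cells (ECs). Of the 16 libraries of D0, 15 held at least 100000 counts on mature miRNAs and were kept. The exception was HC replicate 3, with 18286 counts, so HCs entered with 3 libraries and the other cell types with 4 each.

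All mice were male C57Bl/6J, and those operated on were 12 to 14 weeks old. No transgene, drug or injury was present in the groups compared here. Hearts were digested with collagenase. CMs were enriched by repeated slow centrifugation, HCs were taken from the supernatant with beads against CD45, ECs with beads against CD144, and FBs by adhesion to plastic for 40 minutes. RNA of 3 mice was pooled for each library, or of fewer where a sample was missing. The libraries were made from 500 ng of RNA with 14 PCR cycles in CMs, 50 ng and 16 cycles in ECs, and 150 ng and 15 cycles in FBs and HCs, and were prepared in batches by cell type. Input, cycles and batch therefore cannot be told apart from cell type in any comparison below. The study calls the pools both biological and technical replicates, so p-values measure the spread between pools. At each time point the pools of the different cell types came from matched animals, so the cell types are not independent samples of mice. Which pools correspond is not given in the sources used here, and the fits treat the libraries as independent. The study set aside an HC library and an FB library of D0 as outliers, and its text does not name them. All 4 FB libraries were kept here.

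A miRNA is a single-stranded RNA of about the length of a short primer that guides Argonaute proteins to messenger RNAs, mostly through its seed, the stretch from base 2 to base 8. Each hairpin precursor can release a 5p and a 3p arm, and usually the guide arm is kept while the passenger arm is degraded. The heart is known for a small set of muscle miRNAs, the myomiRs. They comprise miR-1 and miR-133, which are processed from shared precursors, and miR-208a, miR-208b and miR-499, which lie in introns of the myosin heavy chain genes Myh6, Myh7 and Myh7b.

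The mature sequences of the muscle miRNAs are shown first, because their seeds group them and because close copies limit how their counts can be read. Sequences are from RefSeq (GRCm38), which matched 472 of the 561 miRNAs tested below, and capitals mark the seed.
miR-206-3p: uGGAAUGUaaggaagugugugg
miR-133b-3p: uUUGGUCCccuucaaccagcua
miR-208a-3p: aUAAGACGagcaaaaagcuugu
miR-208b-3p: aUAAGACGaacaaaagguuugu
miR-499-5p: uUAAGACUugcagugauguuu

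The hairpins of miR-208a and miR-208b lie in introns of Myh6 (chr14:54949060-54949142, minus strand) and Myh7 (chr14:54975700-54975776, minus strand), and both release a 3p arm with the seed UAAGACG. That of miR-499 lies in an intron of Myh7b (chr2:155622880-155622958, plus strand). The hairpins of miR-206 (chr1:20679010-20679082) and miR-133b (chr1:20682769-20682887), both on the plus strand, overlap exons of the long noncoding gene Gm28653. As background, miR-206 belongs to the miR-1 family and miR-133b to the miR-133 family. In CMs the counts of miR-133b-3p were 87.6% to 89.8% of those of miR-133a-3p, those of miR-1b-5p were 11.3% to 13.7% of those of miR-1a-3p, and those of miR-206-3p were 0.0541% to 0.0664% of those of miR-1a-3p. How a read that fits several of these sequences was counted is not shown by the tables, so miR-133b-3p and miR-206-3p are reported as uncertain close copies of miR-133a-3p and miR-1a-3p. The case of miR-1b-5p is different. As background, its hairpin lies antisense to one of miR-1a, and miR-1b-5p is largely complementary to miR-1a-3p. How strand was handled in the counting is not given in the sources used here, so its counts are also uncertain.

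The CM libraries held 10504090 to 16052359 mature counts, ECs 2105446 to 20465553, FBs 2217588 to 19196750 and HCs 26449253 to 29504666. Reads without a match made up 29.0% to 42.0% of the table in CMs, compared with 48.5% to 67.3% for ECs, 27.7% to 31.3% for FBs and 34.3% to 39.6% for HCs. Levels are given as CPM, counts scaled to an equal total of mature counts per library. A level is a share of the reads of a library, and a miRNA that takes most reads lowers the CPM of all others.

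The resting CM profile was dominated by miR-1a-3p, a muscle miRNA that represses growth and ion channel genes. It took 70.6%, 70.7%, 60.2% and 61.4% of the mature counts in CM replicates 1 to 4. Its mean share was 65.7% ± 5.71 (SD, n = 4) in CMs, compared with 10.3% ± 2.35 (SD, n = 4) for ECs, 0.319% ± 0.118 (SD, n = 4) for FBs and 10.0% ± 1.52 (SD, n = 3) for HCs. Every CM library lay above every other library. In pooled cell preparations of this kind, a larger proportion of a cell type and a higher level per cell cannot be told apart.

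The profile of CMs was also the narrowest by every measure computed. The single highest miRNA of each library took 65.7% ± 5.71 in CMs, against 19.3% ± 1.79 for ECs, 8.62% ± 0.427 for FBs and 10.2% ± 1.22 for HCs. The highest 10 together took 89.2% to 91.1% in CMs. In ECs they took 63.8% to 65.2%, with 51.7% to 58.2% in FBs and 52.4% to 53.3% in HCs. In CMs, 9 to 12 miRNAs sufficed for 90% of all counts, whereas 32 to 34 were needed for ECs, 31 to 35 for FBs and 42 to 44 for HCs. The Shannon entropy, which rises as counts spread over more miRNAs, was 2.40 ± 0.26 bits in CMs, compared with 4.92 ± 0.042 for ECs, 5.30 ± 0.095 for FBs and 5.45 ± 0.016 for HCs. The CM libraries did not overlap with the others in any of these measures. Each difference from ECs and FBs had the smallest p that 4 libraries against 4 can give in a two-sided exact permutation test (p = 0.0286, adjusted p = 0.0429 over 15 tests). Against HCs the smallest p possible is 0.0571 (exact permutation test, 4 libraries against 3), which was reached each time but cannot pass 0.05.

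At an equal total of mature counts, CMs also gave fewer miRNAs. In 2000000 counts drawn from each library, 355 to 380 different miRNAs would be expected in CMs, compared with 564 to 572 for ECs, 560 to 586 for FBs and 633 to 641 for HCs. In 1500000 counts drawn from those outside miR-1a-3p, 419 to 468 would be expected in CMs, as compared with 540 to 551 for ECs, 532 to 554 for FBs and 607 to 617 for HCs, still without overlap. Without miR-1a-3p, the highest remaining miRNA took 24.7% ± 3.89 of the remaining counts in CMs and 21.5% ± 1.53 in ECs, which did not pass the test (two-sided exact permutation test, p = 0.2286). The number of miRNAs for 90% of those counts was then 22.8 in CMs, as compared with 34.8 for ECs, 33 for FBs and 45 for HCs, as means. In CMs the highest remaining miRNA was the uncertain miR-1b-5p in replicates 1 and 2 and miR-148a-3p in replicates 3 and 4. Only miR-1a-3p was removed here, and miR-1b-5p stayed in, so these values are not free of counts that may depend on miR-1a-3p.

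**Figure D1:**
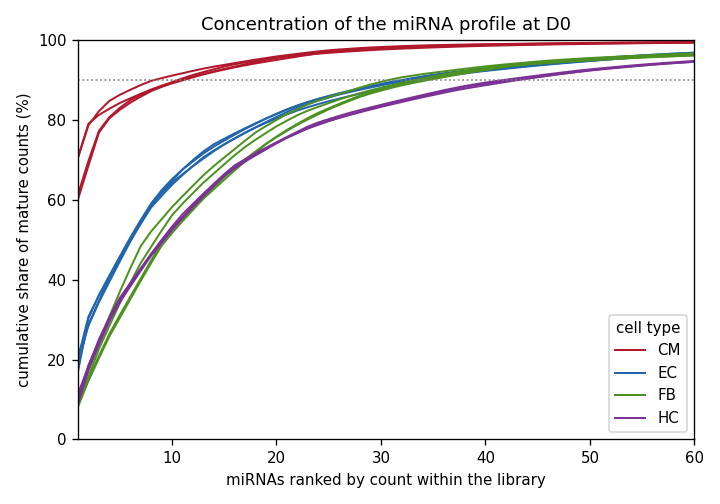
Cumulative share of mature counts (%) against the rank of miRNAs within each D0 library, with 1 line per library coloured by cell type and a dotted line at 90%. The 4 CM lines start at 60.2% to 70.7% and cross 90% at 9 to 12 miRNAs, left of all other lines.

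The 10 highest miRNAs of CMs by mean CPM were miR-1a-3p followed, in this order, by miR-1b-5p, miR-148a-3p, miR-143-3p, miR-99a-5p, let-7f-5p, miR-100-5p, let-7a-5p, miR-30a-5p and miR-30d-5p. The counts of miR-1b-5p stood at 80433 ± 4124 CPM (SD, n = 4) and followed miR-1a-3p in all cell types. The level of miR-148a-3p, from a hairpin outside annotated genes on chromosome 6, was 15412, 35412, 84068 and 83398 CPM in CM replicates 1 to 4. It lay between 5717 and 8612 CPM for ECs, 12374 and 13666 for FBs and 7849 and 8341 for HCs. All CM libraries were above all others, although they differed among themselves more than the other cell types did. The level of miR-143-3p, known from smooth muscle, was 29542 ± 6775 CPM in CMs and 54710 ± 6872 in ECs (SD, n = 4 each). The levels of let-7f-5p and let-7a-5p were 11272 to 15304 and 9510 to 12484 CPM in CMs, below all libraries of the other cell types.

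The CM libraries varied more than those of the other cell types. Over the 75 miRNAs that averaged 100 CPM or more in CMs, the median SD of log2 CPM was 0.36, compared with 0.15 in ECs (145 miRNAs), 0.22 in FBs (154 miRNAs) and 0.13 in HCs (157 miRNAs). Replicate 1 was the highest CM library for 32 of the 75 miRNAs and the lowest for 25. Replicates 3 and 4 held more miR-148a-3p, miR-99a-5p and miR-100-5p and less miR-1a-3p than replicates 1 and 2. For miR-99a-5p the values were 7203, 11913, 21082 and 23448 CPM.

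The level given to most miRNAs in the comparison of cell types depended on the scaling. TMM scaling, which assumes that most miRNAs are level between libraries, gave the CM libraries factors of 0.171 to 0.244 and the others 1.58 to 2.06. The median log2 fold change over the 561 miRNAs tested was -0.35 against ECs, -0.40 against FBs and -0.52 against HCs on the TMM scale. By library size alone, the medians were -3.20, -3.38 and -3.64. Both scales are given side by side below, and a change that holds on only 1 of them is relative to that scale.

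On the TMM scale, 170 miRNAs were higher in CMs than in ECs (30.3% of those tested) and 192 lower (34.2%), with an adjusted p under 0.05 in edgeR's quasi-likelihood test. Against FBs 175 were higher (31.2%) and 212 lower (37.8%), and against HCs 163 were higher (29.1%) and 207 lower (36.9%). Scaled by library size alone, 34 were higher (6.06%) and 433 lower (77.2%) against ECs, 49 (8.73%) and 444 (79.1%) against FBs, and 18 (3.21%) and 481 (85.7%) against HCs. The 3 comparisons share the CM libraries. Passing the test with a log2 fold change of 1 or more in all 3 comparisons was found for 107 miRNAs that were higher (19.1%) and 91 that were lower (16.2%) on the TMM scale, and for 12 (2.14%) and 370 (66%) with library size alone. The 91 lower miRNAs were all among the 370. Of the 107 higher on the TMM scale, 54 averaged under 10 CPM in CMs and 33 averaged at least 100 CPM.

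**Figure D2:**
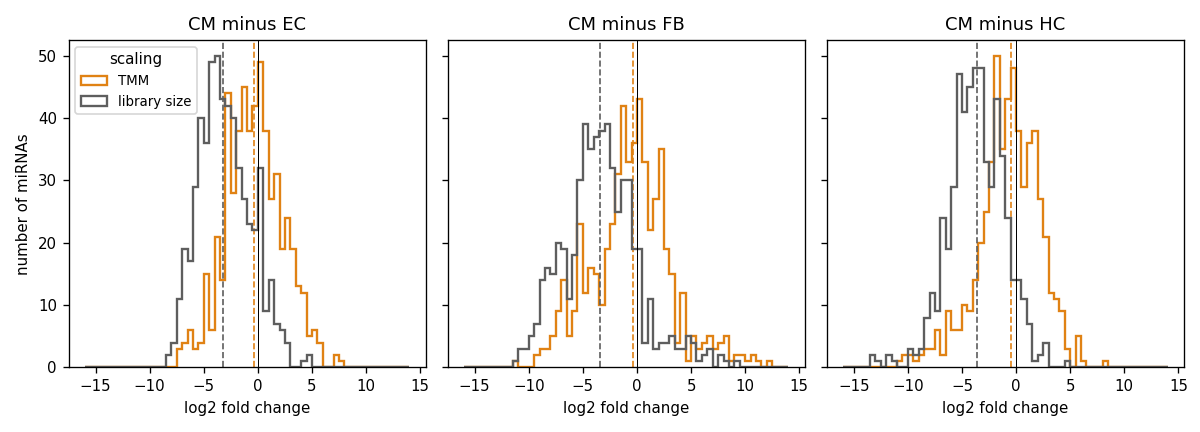
Number of miRNAs by log2 fold change of CMs minus ECs, FBs and HCs, in bins of 0.5, after TMM scaling (orange) and with library size alone (grey), with dashed lines at the medians. The grey medians lie at -3.20, -3.38 and -3.64 and the orange ones at -0.35, -0.40 and -0.52.

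The 12 miRNAs higher in CMs on both scales were miR-1a-3p, miR-1b-5p, miR-206-3p, miR-148a-3p, miR-181a-2-3p, miR-215-5p, miR-504-5p, miR-582-3p, miR-871-3p, miR-881-3p, miR-6929-3p and miR-7225-5p. Outside miR-1a-3p and the uncertain miR-1b-5p and miR-206-3p, miR-148a-3p stood highest. Of all miRNAs tested, 8 had every CM library above every other library in CPM (1.43%) and 298 had every CM library below (53.1%). After TMM scaling these numbers were 97 (17.3%) and 59 (10.5%).

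Among the muscle miRNAs, the 3 markers of CMs (miR-1a-3p, miR-499-5p and miR-208a-3p) lay above the FBs and ECs in every CM library in CPM, whereas against HCs miR-1a-3p alone did so. The log2 fold change of miR-1a-3p was 5.64 ± 0.27 (SE) against ECs, 10.80 ± 0.34 against FBs and 5.99 ± 0.31 against HCs on the TMM scale, and 2.67, 7.69 and 2.71 with library size alone (largest adjusted p = 3.6e-09 in edgeR over both scales).

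The level of miR-499-5p, the miRNA of the Myh7b intron, was 1609, 912, 1054 and 1224 CPM in CM replicates 1 to 4. It was 534, 408, 388 and 264 CPM for ECs, 15.3 to 27.1 for FBs, and 1088, 1097 and 637 for HCs. The CM libraries lay above those of ECs and FBs and overlapped with those of HCs. Its log2 fold change was 4.54 against ECs, 8.84 against FBs and 3.61 against HCs on the TMM scale (largest adjusted p = 6.2e-09 in edgeR). With library size alone it was 1.59, 5.77 and 0.35, the last of which did not pass the threshold (adjusted p = 0.24 in edgeR).

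The level of miR-208a-3p, the miRNA of the Myh6 intron, was 173, 78.6, 111 and 104 CPM in CMs. It was 39.5, 54.5, 23.6 and 47.5 CPM for ECs, 3.54, 0.451, 1.72 and 4.53 for FBs, and 85.9, 122 and 95.5 for HCs. Here too the CMs stood above ECs and FBs and overlapped with HCs. The log2 fold change was 4.44, 8.43 and 3.45 against ECs, FBs and HCs on the TMM scale, and 1.51, 5.34 and 0.21 with library size alone (against HCs, adjusted p = 0.6 in edgeR). The related miR-208b-3p was counted 24 to 32 times per CM library, 2 to 27 times per EC library, 32 to 57 times per HC library and 0 to 2 times per FB library. Its level of 1.84 to 2.67 CPM in CMs overlapped with the 0.950 to 2.73 of ECs and the 1.21 to 2.06 of HCs.

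The level of miR-133a-3p, which shares precursors with miR-1a and represses smooth muscle and fetal genes, was 903, 295, 186 and 182 CPM in CMs. It was 1161, 1508, 698 and 1204 CPM for ECs, 14.9, 12.6, 8.35 and 19.4 for FBs, and 795, 713 and 575 for HCs. On the CPM scale 3 of the 4 CM libraries lay below every EC and HC library. Its direction reversed with the scaling. The log2 fold change was 1.42 against ECs and 2.45 against HCs on the TMM scale (adjusted p = 0.0055 and 0.00015 in edgeR), but -1.55 and -0.83 with library size alone (adjusted p = 0.0021 and 0.082 in edgeR). Without CM replicate 1, the TMM value against ECs was 0.65 and no longer passed the threshold (adjusted p = 0.052 in edgeR). Against FBs it was 7.93 on the TMM scale and 4.82 with library size alone, past the threshold on both.

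**Figure D3:**
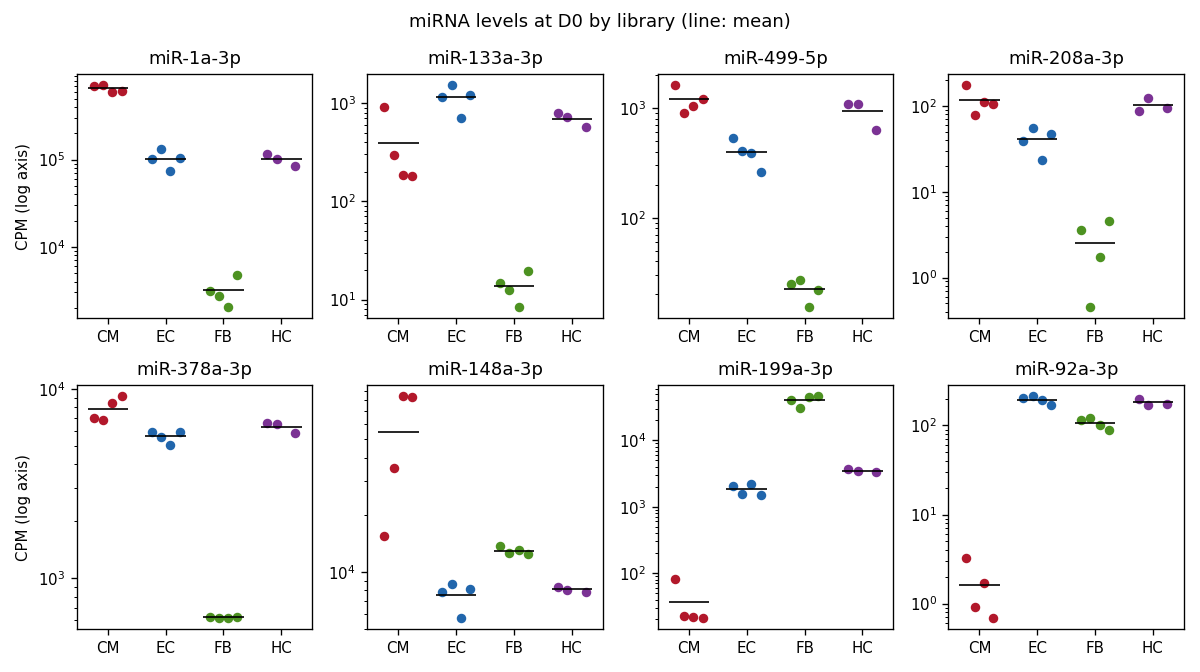
CPM on a log axis of 8 miRNAs in each D0 library, with points for libraries, coloured by cell type, and lines for means. The CM points of miR-1a-3p and miR-148a-3p lie above all others, those of miR-499-5p and miR-208a-3p overlap with HCs, and those of miR-199a-3p and miR-92a-3p lie below all others.

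The list of myomiRs has 13 arms, of which 10 passed the filter on low counts. All 10 were higher in CMs than in each other cell type on the TMM scale, with medians of 3.70, 8.63 and 3.34 against ECs, FBs and HCs (19.1% of all miRNAs tested were higher than in each). Scaled by library size alone, 2 were so, miR-1a-3p and miR-206-3p, and the medians were 0.74, 5.55 and 0.08. On that scale 4 of the 10 were higher and 4 lower in CMs than in ECs (6.06% and 77.2% of all miRNAs tested). The 4 lower were miR-1a-1-5p, miR-133a-3p, miR-133b-3p and miR-208a-5p (largest adjusted p = 0.017 in edgeR). All 10 were higher than in FBs and 2 than in HCs (8.73% and 3.21% of all), and none was lower. The 3 arms not tested, miR-1a-2-5p, miR-208b-5p and miR-499-3p, had at most 17 counts in any CM library. Among the tested arms, miR-1a-1-5p was also low in CMs, with 5 to 16 counts per library. In FBs miR-133a-5p and miR-1a-1-5p had 0 counts in all 4 libraries.

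The balance among the muscle miRNAs does not depend on the scaling when it is read within a library. The log2 ratio of miR-133a-3p to miR-1a-3p was -9.61, -11.23, -11.66 and -11.72 in CM replicates 1 to 4. It ranged from -6.74 to -6.43 for ECs, from -7.95 to -7.72 for FBs and from -7.20 to -7.16 for HCs. All CM libraries lay below all others, with a mean difference of -4.54 from ECs, -3.22 from FBs and -3.88 from HCs on the log2 scale. The difference from ECs and from FBs had p = 0.0286, the smallest possible, in a two-sided exact permutation test and an adjusted p of 0.05 over 21 ratio tests. As a percentage, miR-133a-3p stood at 0.0296% to 0.128% of miR-1a-3p in CMs.

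The same held for the miRNAs of the myosin genes. The mean log2 ratio of miR-499-5p to miR-1a-3p was -9.13 in CMs, compared with -8.03 for ECs, -7.12 for FBs and -6.77 for HCs. That of miR-208a-3p was -12.52 in CMs, compared with -11.32 for ECs, -10.50 for FBs and -9.96 for HCs. For both, the CM libraries lay below all others, although for miR-208a-3p FB replicate 2, with a single count, was almost level with CM replicate 1. The p-values were the smallest possible (exact permutation tests, p = 0.0286 against ECs and FBs and 0.0571 against HCs). Adjusted over the 21 ratio tests, these permutation p-values were 0.05 and 0.0667, so no ratio fell under 0.05 after adjustment. The ratio of miR-378a-3p, which lies in the metabolic gene Ppargc1b, was lower in CMs by 2.22, 4.10 and 2.41 on the log2 scale. Among the 7 miRNAs tested in this way, the uncertain miR-1b-5p and miR-206-3p were those whose CM ratios overlapped with FBs and HCs.

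In the CMs of hearts after infarction the ratios were higher. The mean log2 ratio of miR-133a-3p to miR-1a-3p in CMs was -11.05 ± 0.99 on D0. It was -8.79 ± 1.67 on D1 and -7.47 ± 1.01 on D3, then -6.25 ± 0.44 on D7, -5.69 ± 0.10 on D14, and finally -7.32 ± 0.98 on D28 (SD, n = 4 each). That of miR-499-5p was -9.13 ± 0.35 at D0, -4.90 ± 0.27 at D14 and -5.79 ± 0.26 at D28. That of miR-208a-3p was -12.52 ± 0.47 at D0, -7.27 ± 0.54 at D14 and -8.88 ± 0.94 at D28. The CM libraries of each later day lay above those of D0 for miR-499-5p and miR-208a-3p, and from D3 on for miR-133a-3p, whose D1 libraries overlapped with those of D0. No test between days was made here.

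**Figure D4:**
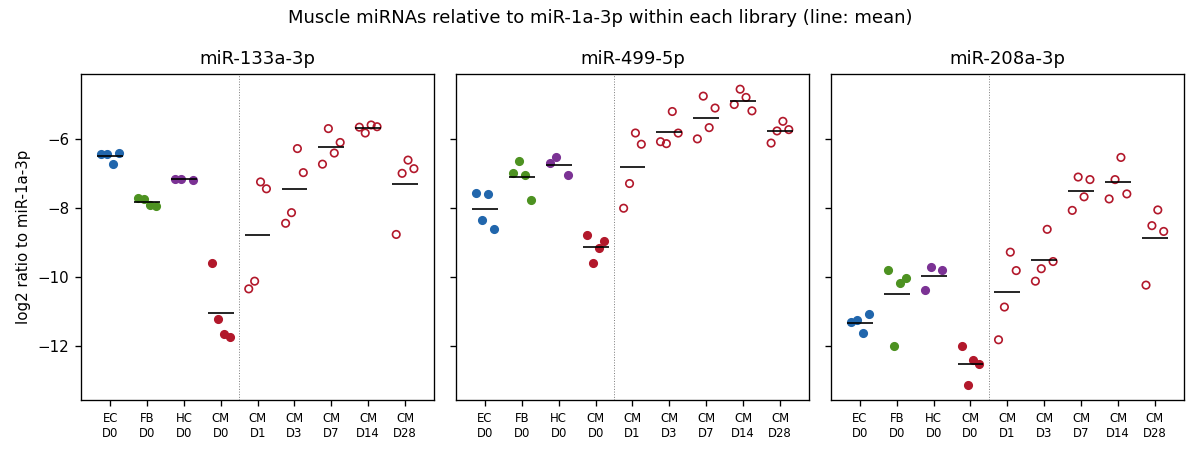
Log2 ratio of miR-133a-3p, miR-499-5p and miR-208a-3p to miR-1a-3p in each library of D0 (filled points, by cell type) and in the CM libraries of D1 to D28 (open points), with lines for means. CMs of D0 have the lowest mean in each panel, for example -11.05 for miR-133a-3p against -6.52 in ECs and -5.69 in CMs of D14.

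The miRNAs with the largest excess in CMs on the TMM scale, at 100 CPM or more and without overlap, were miR-1a-3p, miR-1b-5p, miR-148a-3p, miR-206-3p, miR-181a-2-3p, miR-30e-3p, miR-30a-3p, miR-486a-3p, miR-499-5p and miR-486b-3p, out of 28 that met this rule. Several of them are passenger arms. The sequences of these and of the corresponding guides show that the 2 arms of miR-30e have different seeds and that miR-30e-3p and miR-30a-3p share theirs.
miR-148a-3p: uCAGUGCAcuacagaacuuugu
miR-181a-2-3p: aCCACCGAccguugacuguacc
miR-30e-5p: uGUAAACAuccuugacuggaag
miR-30e-3p: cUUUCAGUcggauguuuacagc
miR-30a-3p: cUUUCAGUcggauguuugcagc

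For miR-148a-3p, the log2 fold change was 5.75 ± 0.38 (SE) against ECs, 5.11 ± 0.37 against FBs and 5.96 ± 0.44 against HCs on the TMM scale, and 2.85, 2.08 and 2.75 with library size alone, past the threshold in edgeR on both. Of its seed family, miR-148b-3p was also higher than in each other cell type on the TMM scale but had negative log2 fold changes with library size alone (-0.52, -1.08 and -1.59), and miR-152-3p was not higher on either scale. The level of miR-181a-2-3p was 76.2, 149, 180 and 199 CPM in CMs, compared with 20.3 to 33.4 for ECs, 45.9 to 87.9 for FBs and 63.2 to 79.0 for HCs. Replicate 1 of CMs overlapped with FBs and HCs.

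The miR-30 family, abundant in the heart, illustrates the difference between arms. The hairpin of miR-30e lies in an intron of Nfyc (chr4:120772606-120772697, minus strand). The level of miR-30e-3p was 1940, 4333, 5639 and 5671 CPM in CMs, compared with 1547 to 1814 for ECs, 1071 to 1114 for FBs and 2176 to 2394 for HCs. All CM libraries but replicate 1 were above all others. Its log2 fold change was 4.34, 5.09 and 4.17 against ECs, FBs and HCs on the TMM scale, and positive with library size alone, at 2.01 against FBs and 0.92 against HCs. All 6 passenger arms of the family were higher in CMs than in each other cell type on the TMM scale (19.1% of all miRNAs tested were), with medians of 2.45, 3.69 and 2.90. Among the 5 guide arms only miR-30c-5p was so, and their medians were 0.62, 2.17 and 1.31. With library size alone, no arm of the family was higher or lower than in each other cell type by the rule.

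The miR-378 family, linked to energy metabolism in muscle, was higher in CMs than in each other cell type for all 5 members on the TMM scale (against 19.1% of all miRNAs tested), with medians of 3.21, 6.59 and 3.39 against ECs, FBs and HCs. By library size alone none was so, and the medians were 0.26, 3.52 and 0.13. The level of miR-378a-3p was 6887 to 9166 CPM in CMs, compared with 5066 to 5944 for ECs, a mean of 622 for FBs and 5875 to 6638 for HCs, with all CM libraries above. Near copies limit this group, since miR-378c and miR-378d had 80.3% to 82.5% and 82.4% to 95.0% of the counts of miR-378a-3p in CMs.

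The let-7, miR-26 and miR-29 families, guides found in many tissues, gave different calls on the 2 scales. With library size alone, 66% of all miRNAs tested were lower in CMs than in each other cell type, and the counts on that scale in these lists are read against it. Of the 9 let-7 members, 1 (let-7f-5p) was higher in CMs than in each other cell type and none lower on the TMM scale, while all 9 were lower with library size alone. Their summed level was 31989 to 40726 CPM in CMs, compared with 177802 to 186957 for ECs, 319675 to 363635 for FBs and 214489 to 243686 for HCs. Both members of the miR-26 family and all 3 of the miR-29 family were lower in CMs than in each other cell type with library size alone, and none was called against all on the TMM scale. The list of other heart-abundant miRNAs had 4 of 12 higher (miR-22-3p, miR-149-5p, miR-185-5p and miR-490-3p) and 4 lower (miR-23a-3p, miR-23b-3p, miR-195a-5p and miR-497a-5p) on the TMM scale, with medians of 0.40, 0.73 and 0.37. By library size alone 8 of the 12 were lower than in each other cell type and none was higher.

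The miRNAs with the largest deficit in CMs, at 100 CPM or more in each other cell type and without overlap, were miR-451a, miR-92a-3p, miR-199a-3p and miR-199b-3p, miR-125a-5p, miR-199b-5p, miR-199a-5p, miR-361-5p, miR-107-3p and miR-103-3p, out of 15 that met this rule. They were lower on both scales. Their sequences are given for the members discussed here and for miR-25-3p, which shares a seed with miR-92a-3p and did not follow it.
miR-92a-3p: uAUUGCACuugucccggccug
miR-25-3p: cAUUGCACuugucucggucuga
miR-451a: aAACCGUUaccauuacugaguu
miR-199a-3p: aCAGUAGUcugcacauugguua
miR-103-3p: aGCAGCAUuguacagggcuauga
miR-107-3p: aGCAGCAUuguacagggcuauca

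The level of miR-92a-3p, a member of the miR-17-92 cluster that is abundant in endothelium and in dividing cells, was 3.24, 0.92, 1.68 and 0.688 CPM in CMs. It was 168 to 213 CPM for ECs, 89.3 to 121 for FBs and 171 to 201 for HCs, far above all CM libraries. Its log2 fold change was -3.99 ± 0.35 (SE), -3.01 ± 0.34 and -3.60 ± 0.35 against ECs, FBs and HCs on the TMM scale and -6.92, -6.06 and -6.82 with library size alone, past the threshold in edgeR each time. Its hairpins are Mir92-1 (chr14:115044427-115044506) in the host transcript Mir17hg and Mir92-2 on chromosome X. The level of miR-25-3p, whose hairpin lies within Mcm7, was 271 ± 20.4 CPM in CMs (SD, n = 4). Its log2 fold change was -0.07, -0.07 and -0.43 on the TMM scale, none past the threshold (smallest adjusted p = 0.051 in edgeR), and -3.02, -3.15 and -3.69 with library size alone.

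Of the 10 arms of the miR-17-92 cluster and its paralogs, 7 were lower in CMs than in each other cell type on the TMM scale and none higher, with medians of -1.95, -1.45 and -2.93 (16.2% of all miRNAs tested were lower than in each). Without the minimum fold change, 1 arm passed the threshold as higher in CMs in each single comparison. Of the 6 members of the miR-15 and miR-16 family, which restrain the cell cycle, 5 were lower and none higher, with medians of -2.72, -2.40 and -2.14. All members of both lists were lower than in each other cell type with library size alone, where 66% of all miRNAs tested were. The level of miR-16-5p had a mean of 59.6 CPM in CMs against 1328 in ECs and 1129 in FBs. The miR-103-3p and miR-107-3p sequences, which share their first 21 bases and lie in introns of the Pank genes, were lower in CMs by similar amounts, with log2 fold changes between -1.84 and -1.42 on the TMM scale.

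In CPM, the marker lists of fibroblasts, leukocytes and endothelium were each lower in CMs than in the cell type they mark. The list of 5 fibroblast arms, led by miR-199a-3p, summed to 46.6 to 136 CPM in CMs and 49205 to 78323 in FBs. All 5 were lower in CMs than in each other cell type on both scales. Of all miRNAs tested, 16.2% were so on the TMM scale and 66% with library size alone. The level of miR-199a-3p was 80.83 CPM in CM replicate 1 and 21.03 to 22.94 in the others, and 30443 to 46265 in FBs. The list of 7 leukocyte arms summed to 95.7 to 254 CPM in CMs and 35768 to 47223 in HCs. Per CM library, miR-142a-3p had 7 to 17 counts, miR-142a-5p 1 to 5, miR-223-3p 0 to 2 and miR-342-3p 7 to 66. The counts were higher for miR-150-5p (179 to 773) and miR-146a-5p (510 to 979). In ECs and FBs miR-223-3p was also low, with 1 to 17 and 3 to 7 counts. On the TMM scale 6 of the 7 were lower in CMs than in HCs (36.9% of all miRNAs tested), and 1 was lower than in each other cell type (16.2%). By contrast miR-155-5p, with 36.7 to 78.6 CPM in CMs and 102 to 317 in HCs, was higher in CMs than in each other cell type on the TMM scale, but with library size alone its log2 fold change was -0.13, 3.05 and -1.68 against ECs, FBs and HCs.

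The arms of miR-126a, the endothelial miRNA of the Egfl7 gene, summed to 4423 to 9789 CPM in CMs, compared with 174749 to 215247 for ECs, 20888 to 30916 for FBs and 56673 to 91837 for HCs. On the TMM scale the log2 fold change of miR-126a-3p was -1.90 against ECs and 1.10 against FBs (adjusted p = 1.25e-07 and 7.76e-05 in edgeR), so it was called higher in CMs than in FBs, and it was -0.26 against HCs (adjusted p = 0.312 in edgeR). That of miR-126a-5p was -2.72, 0.16 and -0.81, past the threshold against ECs only (adjusted p = 3.46e-06, 0.71 and 0.0722 in edgeR). In the mural list, miR-143-3p was higher in CMs than in each other cell type on the TMM scale and the other 3 arms were not. With library size alone 3 of the 4 were lower than in each, which is near the 66% of all miRNAs tested. Conversely, the muscle list summed to 76716 to 135889 CPM in ECs and 86366 to 117461 in HCs but to 2067 to 4885 in FBs. The part that RNA from other cells had in these levels was not tested.

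The erythroid list was split. The level of miR-451a, which is made in red cell precursors without Dicer, was 1.62, 0.637, 1.62 and 1.22 CPM in CMs, compared with 44.2 to 196 for ECs, 162 to 803 for FBs and 50.1 to 127 for HCs. Both arms of miR-144, its neighbour on the precursor, had 0 to 2 counts per CM library. In contrast, miR-486a-5p, which is encoded in Ank1 and found in red cells and in muscle, was at 1684 to 1928 CPM in CMs and at means of 1183, 997 and 1238 CPM in ECs, FBs and HCs. It was higher in CMs on the TMM scale by 3.56 against ECs and 3.93 against FBs, and by 0.60, 0.85 and 0.54 with library size alone, where the threshold was passed against FBs only (adjusted p = 0.061, 0.011 and 0.11 in edgeR). The counts of miR-486a-5p and miR-486b-5p are identical in every library.

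The miRNAs of the imprinted Dlk1-Dio3 cluster were low in CMs, mostly in relation to FBs. All 26 were lower in CMs than in FBs on the TMM scale, with a median of -5.11, 14 were lower and 1 higher than in ECs (median -1.62), and 8 were lower and 2 higher than in HCs (median -0.85). Of all miRNAs tested, 37.8% were lower in CMs than in FBs, 34.2% than in ECs and 36.9% than in HCs. Some members were counted almost only in FBs. For example, miR-376a-3p and miR-494-3p had 0 counts in CMs and at most 2 per EC or HC library. In FBs they had 1 to 32 and 7 to 42. Such members passed the filter on low counts only through FBs, so their calls against FBs are no separate support. They summed to 43.6 to 66.8 CPM in CMs, compared with 559 to 718 for ECs, 8754 to 9661 for FBs and 475 to 622 for HCs. In the list from other tissues, 7 of 8 arms were tested. The liver miRNA miR-122-5p had 8 to 22 counts per CM library and means of 161 and 146 CPM in ECs and FBs, but lay at 2.14 to 2.65 CPM in HCs. In the same list miR-192-5p and miR-375-3p were higher in CMs than in each other cell type on the TMM scale, while none was so with library size alone. In CPM, miR-192-5p lay at 290 to 391 in CMs, below every other library (412 to 650). The counts of miR-375-3p were only 4 to 14 per CM library. Its 0.38 to 0.87 CPM in CMs lay below the 1.29 to 2.17 CPM of HCs.

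The ratio of the 5p to the 3p arm of a hairpin also does not depend on the scaling. It was tested for 132 hairpins whose arms both averaged 10 counts or more. The ratio differed between CMs and ECs for 66 hairpins (25% with more 5p and 25% with more 3p in CMs), between CMs and FBs for 62 (22% and 25%) and between CMs and HCs for 43 (12.9% and 19.7%), with an adjusted p under 0.05 in limma. CMs held more of the 5p arm than each other cell type for 15 hairpins (11.4%) and more of the 3p arm for 21 (15.9%).

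The log2 ratio of miR-30e, 5p over 3p, was 1.72, -0.52, 0.99 and -0.37 in CMs. It was 3.88 to 4.44 for ECs, 2.49 to 3.55 for FBs and 2.67 to 2.95 for HCs, above all CM libraries. In CMs the passenger arm miR-30e-3p had 30.3% to 143% of the counts of the guide, compared with 4.62% to 6.80% in ECs. The difference was -3.74 ± 0.44 (SE) against ECs, -2.60 ± 0.44 against FBs and -2.32 ± 0.48 against HCs (largest adjusted p = 0.0015 in limma).

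The ratio of miR-361 (chrX:113074824-113074893, in an intron of Chm) was -3.78, -5.52, -6.66 and -6.98 in CMs, compared with -1.72 to -1.40 for ECs, -2.14 to -1.32 for FBs and -2.77 to -2.48 for HCs. The 3p arm exceeded the 5p arm in every library. In CMs miR-361-5p was among the miRNAs with the largest deficit, whereas miR-361-3p was called higher in CMs than in each other cell type on the TMM scale and had negative log2 fold changes with library size alone (-0.74, -0.69 and -1.82). The ratio of miR-106b, in an intron of Mcm7, was -5.31 ± 0.66 in CMs and had means of -1.91, -2.40 and -1.59 in ECs, FBs and HCs. It rested on 12 to 16 counts of the 5p arm and 320 to 790 of the 3p arm per CM library. The ratios of miR-151 and miR-674 were also lower in CMs, and for miR-674 CM replicate 1 overlapped with the FBs.

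Among hairpins averaging 50 counts or more per arm, miR-29c had the largest difference toward the 5p arm. Its log2 ratio was -6.57, -5.35, -4.43 and -5.12 in CMs, compared with -8.11 to -7.75 for ECs, -10.50 to -9.40 for FBs and -8.82 to -8.63 for HCs, with 62 to 120 counts of the 5p arm per CM library. The difference from FBs was 4.66 ± 0.39 (SE, adjusted p = 5.5e-07 in limma). The ratio of miR-676 was positive in all CM libraries (0.93 to 1.90) and negative in all others (-1.71 to -0.50). The ratios of miR-10a and let-7e were higher in CMs by 2.12 to 3.39, but their 3p arms had only 5 to 7 and 4 to 11 counts per CM library, and that of miR-450b had 0 to 4.

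**Figure D5:**
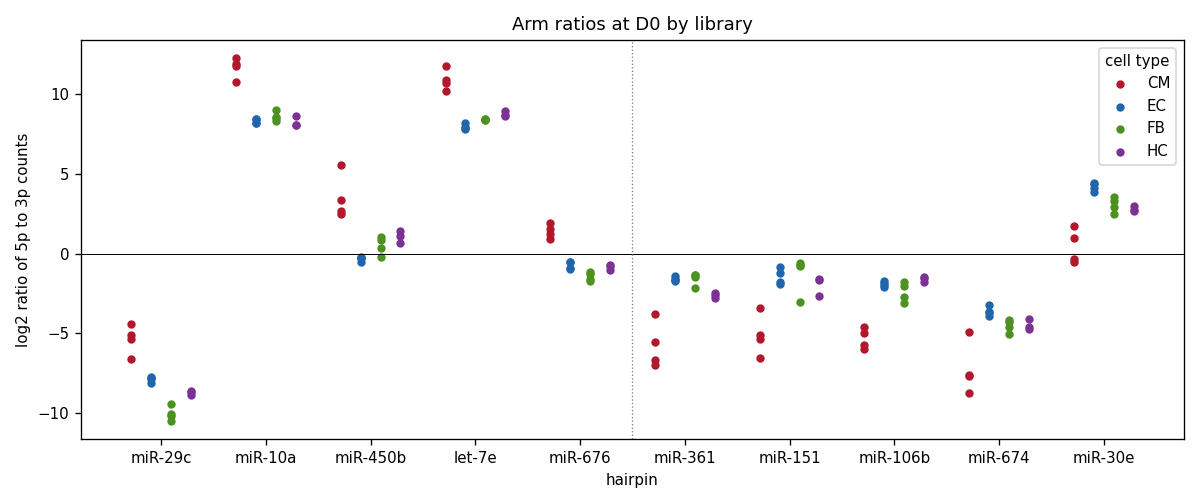
Log2 ratio of 5p to 3p counts in each D0 library for 10 hairpins, coloured by cell type. CM points lie above the others for the 5 hairpins left of the dotted line and below for those on the right, with overlap only for miR-674.

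Libraries of later days gave the same contrasts in samples that the choice at D0 did not use, in a fit of all kept libraries and 758 miRNAs. The D0 libraries in this fit are those that chose the members, so agreement at D0 is no separate check. Of the 107 miRNAs higher in CMs than in each other cell type at D0, 97 were called so at D0 in this fit as well. On later days, 72 were so on D1 (against 13.9% of all miRNAs), 56 on D3 (12.3%), 46 on D7 (12.8%), 46 on D14 (12.5%) and then 48 on D28 (12.7%). The opposite call was made for 1 of them on D7, 3 on D14 and 2 on D28. They were so on all 5 later days for 38 miRNAs and on none for 32. Of the 38, 17 averaged at least 100 CPM in CMs at D0. The 38 included miR-1a-3p, both arms of miR-133a and of miR-208a, miR-499-5p, miR-208b-3p, all 5 members of the miR-378 list, miR-486a-5p, miR-22-3p, miR-30c-5p, both arms of miR-490, miR-149-5p, miR-155-5p, miR-185-5p and miR-504-5p. The 32 included miR-143-3p, miR-99a-5p, miR-100-5p, let-7f-5p, miR-148b-3p, miR-151-3p and miR-361-3p. The excess of miR-148a-3p, miR-30e-3p and miR-486a-3p was called at D1 and D3 and not at D7, D14 or D28. For miR-148a-3p the level in CMs went from 54572 ± 34648 CPM at D0 to 10430 ± 5870 at D28 (SD, n = 4 each).

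Of the 91 miRNAs lower in CMs at D0, 89 were called so at D0 in this fit, again with the same D0 libraries. On later days, 21 were so on D1 (against 5.28% of all miRNAs), 13 on D3 (4.62%), 13 on D7 (8.71%), 17 on D14 (8.58%) and then 33 on D28 (12.1%), and 1 was called higher on D7 and 1 on D14. Only miR-92a-3p, miR-92b-3p and miR-652-3p were so on each later day, and 49 were on none, among them miR-103-3p and miR-361-5p. With library size alone, 5 of 12 higher and 72 of 370 lower miRNAs were so on each later day. In the TMM fit of all days the factors of the CM libraries differed between days. They were 0.136 to 0.179 at D0, 0.225 to 0.444 at D1, 0.423 to 0.614 at D3 and 0.501 to 0.762 at D7. At D14 they were 0.713 to 0.918 and at D28 0.313 to 0.535. Later days also come from injured hearts. A call that was absent on later days may therefore differ through the injury, the libraries or this scaling, which cannot be told apart here.

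The first base of the mature sequence gave another description. Among miRNAs that begin with A the median log2 fold change was -0.86, -1.02 and -1.03 against ECs, FBs and HCs on the TMM scale. For those that begin with C it was 0.16, 0.16 and 0.07 on the same scale. The medians for G were -0.15, -0.77 and -0.77, and those for U, the largest class, were -0.24, -0.26 and -0.42. These are descriptions over 472 miRNAs, without a test.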

How the data were processed

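The deposited values are raw counts of reads per mature miRNA, made by the authors. They used Trim Galore, removal of reads under 18 nt and the nf-core small RNA pipeline (Bowtie2, SAMtools and mm10 per the labels). The study states miRBase 21 as the release. Whether the names in the deposited counts match that release was not checked. Aligner settings are not given in the sources used here. The tables list 1978 mature miRNAs, and 77 in 32 sets have counts identical to another. The line of unmatched reads (27.7% to 67.3% at D0) was left out, and hairpin counts and the total RNA data were not used.

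Groups came from the labels. Libraries under 100000 counts were dropped. Counts of 15 D0 libraries were fitted in 1 model with a term for each cell type, with edgeR 4.0.16 in R 4.3.3 (TMM, filterByExpr, 561 miRNAs, quasi-likelihood test, Benjamini-Hochberg over all tested). Log2 arm ratios used a pseudocount of 0.5 and limma 3.58.1. Concentration measures and ratios to miR-1a-3p were compared with two-sided exact permutation tests (scipy 1.17.1, numpy 2.4.6, pandas 2.3.3, Python 3.11.15), and figures drawn with matplotlib 3.10.9. The procedures were tested on simulated data.

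Named miRNAs were list members, the 10 highest in CMs, the 10 most different in each direction at 100 CPM or more without overlap, and 5 hairpins in each direction by arm ratio with a mean of 50 counts per arm. The members and lists were chosen with earlier results of these data known. The ratios to miR-1a-3p and the expected number of miRNAs in an equal total of counts, with and without miR-1a-3p, were added after the data were seen, as were miR-25-3p, miR-148b-3p, miR-152-3p, miR-361-3p, miR-652-3p, miR-92b-3p and the other names outside this rule. Alternatives were DESeq2 1.42.0, other scalings and filters, the replicate block, all days, all 16 libraries, identical miRNAs collapsed and each library left out.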

Additional observations from a re-analysis of the deposited data

Results flagged for a closer look

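Of 166 groups of 4 libraries examined, 11 held a library far from the others, where chance marks about 1 in 20. Only groups of 4 were examined, so the HCs, with 3 libraries, were not.

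In CM replicate 1 the levels of miR-133a-3p (902.9 CPM, others 181.7 to 294.9), miR-133b-3p (790.8 CPM, others 163.1 to 263.3), miR-103-3p (142 CPM, others 56.52 to 70.37), and miR-199a-3p and the identical miR-199b-3p (both 80.83 CPM, others 21.03 to 22.94) stood above the other CM libraries. In CM replicate 2 the highest 10 miRNAs took 91.13% of the counts (others 89.18% to 89.49%).

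Among ECs, the log2 ratio of miR-133a-3p to miR-1a-3p was -6.744 in replicate 3 (others -6.455 to -6.429), miR-143-3p was at 44450 CPM in replicate 4 (others 57170 to 58650) and miR-361-5p at 134.4 CPM in replicate 1 (others 114.8 to 116.9). In FB replicate 2 the log2 arm ratio was -2.138 for miR-361 (others -1.456 to -1.323) and -3.025 for miR-151 (others -0.8045 to -0.5644).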

How the results depend on the processing

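The scaling moved the results most, and the cause was not tested. With library size only, the miRNAs higher and lower in CMs numbered 34 and 433 against ECs, 49 and 444 against FBs, 18 and 481 against HCs, and 12 and 370 against each, of which 5 and 72 were so on each later day. With library size counted without miR-1a-3p they numbered 84 and 340, 95 and 346, 55 and 374, and 39 and 252. Log2 fold changes that reversed with library size only were those of miR-1a-1-5p (-1.595 against ECs, -0.81 against HCs), miR-133a-3p (-1.546 and -0.8267), miR-133b-3p (-1.658 and -0.9032), miR-208a-5p (-1.169 and -0.7169) and miR-133a-5p (-0.04166 against HCs). Without miR-1a-3p in the library size, miR-1a-1-5p (-0.1939), miR-133a-3p (-0.03054) and miR-133b-3p (-0.1444) reversed against ECs.

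With a mean of at least 10 CPM, 323 miRNAs were tested, and 102 were higher than in ECs, 113 higher and 140 lower than in FBs, 104 higher and 135 lower than in HCs, and 61 higher than in each. A log2 fold change of at least 2 left 58 higher and 45 lower. A pseudocount of 5 gave 79 hairpins that differed from HCs and 36 with more 3p than each. Without miR-1a-3p the share of the highest miRNA differed from ECs by 3.208 percentage points (exact permutation test, p = 0.2286).

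With each library left out, the higher and lower miRNAs numbered 157 to 171 and 166 to 201 against ECs, 165 to 176 and 198 to 222 against FBs, 152 to 168 and 183 to 225 against HCs, and 102 to 108 and 76 to 101 against each, and the arm ratios that differed 56 to 75, 56 to 68 and 37 to 61 (14 to 21 with more 5p and 19 to 24 with more 3p than each). The differences of CMs from ECs, FBs and HCs ranged from 44.79 to 48.29, 55.48 to 58.98 and 53.86 to 57.36 percentage points for the highest miRNA, 24.85 to 25.51, 34.18 to 36.36 and 36.54 to 37.22 for the highest 10, -2.61 to -2.444, -2.984 to -2.819 and -3.136 to -2.97 bits of entropy, -22.67 to -21.67, -23.58 to -22.17 and -32.75 to -31.67 miRNAs for 90%, and -205.2 to -196.9, -215.9 to -206.1 and -273.5 to -265.2 for the number of miRNAs expected in 2000000 counts. With 3 libraries against 4 no exact test can pass 0.05, so these say nothing of stability of the calls. The ratio of miR-1b-5p to miR-1a-3p against HCs ranged from -0.02485 (without HC replicate 4) to 0.1228 and was also reversed without CM replicate 3 (-0.0069). The TMM value of miR-133a-3p against ECs lost its call without CM replicate 1, as did those of miR-133b-3p and miR-1a-1-5p, the last also without EC replicate 4.

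The pools come from matched animals, but the sources used here do not say that equal numbers mark matched pools, and 3 of 21 correlations of same-numbered deviations were over 0.1. The matching could therefore not be modelled with certainty. With a replicate block, 167 higher and 190 lower against ECs, 171 and 205 against FBs, and 158 and 201 against HCs were called, and no named call changed. DESeq2, identical miRNAs collapsed and no filter on low counts changed no named call either. The fit of all days lost miR-1a-1-5p against ECs, and all 16 libraries lost the arm ratio of miR-676 against HCs. Depth limits arms with few counts in CMs.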
